A study of Mus musculus with 15 samples.

Results

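The libraries of mouse T cell acute lymphoblastic leukemia (T-ALL) collected after 24 h and after 8 h of doxycycline were compared, to find which genes moved only late and which went back on their early response to the loss of MYC. They are 6 of the 15 libraries of the series, 3 at each time, and were chosen by their labels alone. The cells are a culture derived from T-ALL of EμSRα-tTA/tet-O-MYC mice on the FVB/N background, in which the Eμ and SRα elements drive a tetracycline transactivator that keeps a human MYC transgene on until doxycycline is added. All groups carried both transgenes. The mock-treated libraries (0 h, MYC on) and the libraries at 2, 4 and 8 h (MYC off, doxycycline) gave the early response. PolyA RNA was sequenced. Neither the labels nor the study's methods say whether the 3 libraries of a time came from separate cultures, so the p-values speak of the spread among these libraries alone, which may be technical. In a bulk library, fewer cells of a kind and less RNA per cell cannot be told apart.

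MYC binds with MAX at the E-box, whose core letters are CACGTG, and is best known for raising the genes of ribosome assembly, nucleotide and polyamine synthesis, and glucose and glutamine use. Ribosomal protein genes are controlled partly apart from it: their mRNAs begin with a run of pyrimidines, the terminal oligopyrimidine (TOP) tract, through which growth signals set how much of them is translated and how stable they are. As thymocytes mature, the antigen receptor, its signaling proteins and homing receptors rise.

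The 6 libraries held 25852711 to 26669128 counts, and 3 counts corresponded to 0.112 to 0.116 CPM, that is, counts scaled to a library of 1000000 with factors from the trimmed mean of M values (TMM). For genes at up to about 10 CPM, counting error could be larger than the spread between libraries of a time. The human MYC transgene was at 2078, 2016 and 1974 CPM in the 0 h libraries, at 5.68, 6.07 and 4.98 CPM at 8 h and 3.39, 2.94 and 3.54 CPM after 24 h, so the residual level fell again by a log2 change of -0.76 ± 0.15 (SE), with an adjusted p of 0.00911 by edgeR's quasi-likelihood test with Benjamini-Hochberg adjustment, a call that was lost on library totals in place of TMM. One library stood apart. The counts of 24 h replicate 3 differed from those of replicates 1 and 2 by a chi-square of 84.4 and 92.9 per degree of freedom, against 3.04 between replicates 1 and 2. Pairs of 8 h libraries differed by 4.87 to 17.2. Counts of genes and of list members are therefore also given without 24 h replicate 3. Markers of T cells summed to 7665 to 7906 CPM at 8 h and 9342 to 10754 CPM at 24 h, with all 10 detected. The 10 macrophage and monocyte markers summed to 16.5 to 17.9 CPM at 8 h and 25.8 to 32.9 CPM at 24 h, with Lyz2, C1qa and C1qb at 0 in all 6 libraries and 1 of the 4 tested members called higher (Itgam). The 8 markers of fibroblasts and endothelium summed to 93.7 to 109 CPM and 117 to 139 CPM, nearly all of it from Pecam1, with Col3a1, Dcn, Cdh5 and Pdgfra at 0. Markers of B cells, NK cells, dendritic cells, neutrophils and erythroid cells each summed to at most 1.80 CPM in any of the 6 libraries, and no tested member of these 5 lists was called.

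Between 8 and 24 h, 947 of 14485 tested genes rose (6.54%) and 994 fell (6.86%), 13.4% in all, at an adjusted p under 0.01 by edgeR's quasi-likelihood test on the 6 libraries. Without 24 h replicate 3, 2678 rose (18.5%) and 2270 fell (15.7%), 34.2% in all, and 947 of the 947 rises and 993 of the 994 falls were among them. Calls depended more on keeping all 3 of the 8 h libraries: without replicate 1, 2 or 3 of 8 h, the rises numbered 115, 104 and 135 and the falls 270, 232 and 259, and without 24 h replicate 1, 537 and 546. Without 24 h replicate 2 the falls numbered 654. On library totals in place of TMM, the median log2 change of all genes moved up by 0.17 and the split became 1801 rises (72.1% of calls) against 696 falls, where TMM gave 48.8% rises. The alignment notes name no strand setting, and 41 of the 101 genes given below with values overlap another gene on the opposite strand, so that reads of the partners cannot be told apart; the partner is named where it is well known. Changes are given here on the TMM scale, on which the median gene moved by 0.04 (log2).

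Longer and more GC-rich genes were higher at 24 h than shorter and AT-rich ones, also among genes that encode no ribosomal protein. From the shortest to the longest quintile of 11023 protein-coding genes, the median log2 change ran from -0.11 to 0.23, and without 24 h replicate 3 from -0.03 to 0.13. From the lowest to the highest quintile of transcript GC content it ran from -0.04 to 0.29, and from 0.00 to 0.19 without that library. Replicate 3 alone stood against its 2 fellow libraries in the same way, with a median log2 ratio of -0.27 in the shortest quintile and 0.30 in the longest. The part of length and GC content in the results below was not tested.

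**Figure D1:**
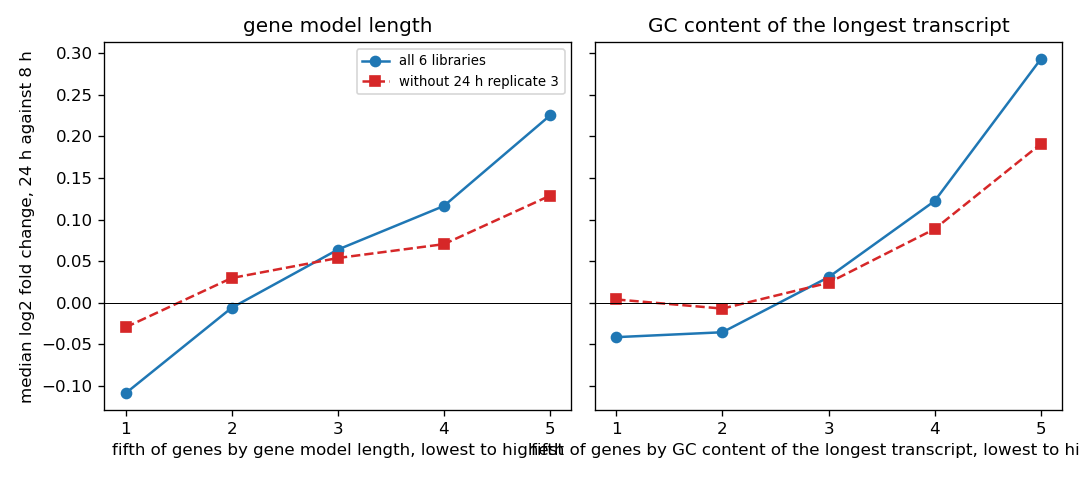
Median log2 fold change of 24 h against 8 h (y axis) in quintiles of protein-coding genes other than ribosomal protein genes, ordered by gene model length (left) and by GC content of the longest transcript (right), with all 6 libraries (circles) and without 24 h replicate 3 (squares). Both trends keep their direction without replicate 3 and are flatter, and the highest GC quintile sits at 0.29 and 0.19.

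Each gene was then placed by its early response, taken from 4 h against 0 h, libraries that the late step does not use. Early, 1565 genes rose (10.8%) and 2030 fell (14%) by at least 1.5-fold. At the same fold, 860 genes rose (5.94%) and 855 fell (5.9%) in the late step. Of the 2030 early falls, 191 turned and rose late (9.41%) and 40 fell further (1.97%). Of the 1565 early rises, 171 turned and fell late (10.9%) and 109 rose further (6.96%). A further 68 genes rose and 181 fell at the late step after staying within 1.2-fold of 0 h at 2, 4 and 8 h, and these are called late-only. All members of the 6 classes, 191, 171, 109, 40, 68 and 181 genes, were also called in the same direction without 24 h replicate 3. Without any 1 of the 8 h libraries, however, the late-only rises numbered 3 to 6, the late-only falls 62 to 65, the reversals that rose 18 to 28 and those that fell 35 to 57, and the genes that rose or fell at both steps 23 to 31 and 12 to 13.

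**Figure D2:**
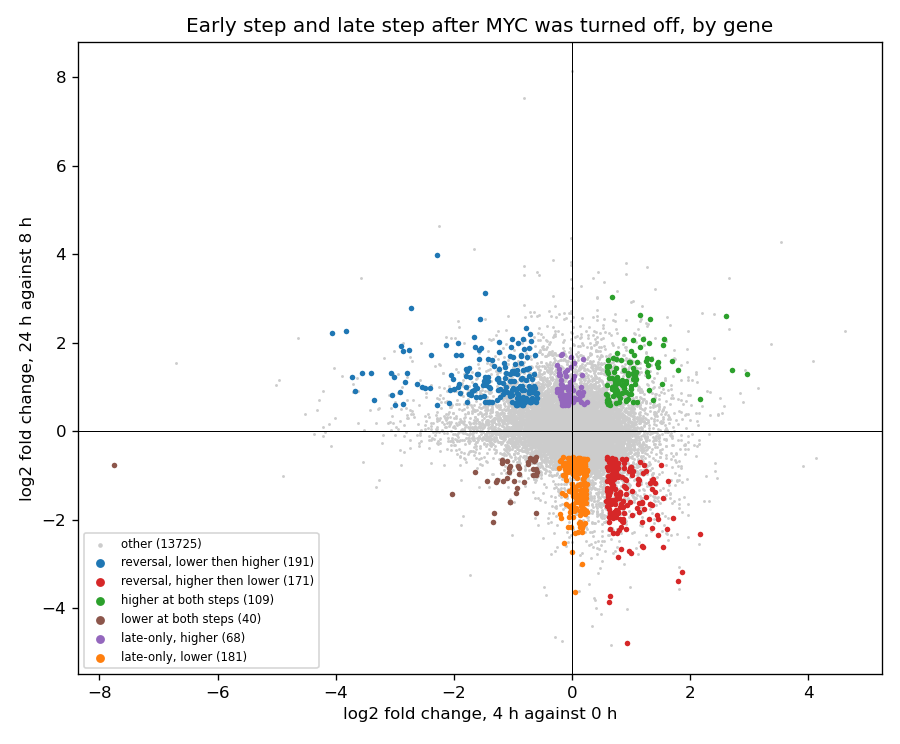
Log2 fold change of 4 h against 0 h (x axis) and of 24 h against 8 h (y axis) for 14485 genes, 1 point a gene, colored by class with the number of genes in each. Most of the 2030 early falls sit near 0 on the y axis, 191 of them lie above it as reversals, and the 181 late-only falls form a column below the center.

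Many late-only falls were genes of the ribosome. Of the 50 cytosolic ribosomal proteins on the list, 46 fell and none rose, against 6.86% falls among all genes, with a median log2 change of -1.52. Without 24 h replicate 3, 50 of 50 fell with a median of -1.31, and without 1 of the 8 h libraries 24 or 25 did. None had fallen at 4 h (24.1% of all genes had), where the median was 0.18 and 16 had risen (25.1% of all genes). Over the 77 ribosomal protein genes of the annotation, 72 fell. In all 77 the 24 h libraries lay below every 8 h library (25.2% of all genes did so). Late-only falls made up 48 of the 77, against 181 of all 14485 genes.

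Summed over the family, ribosomal protein genes took 10.1% to 10.6% of counts at 0 h, 10.4% to 10.7% at 2 h, 11.8% to 13.3% at 4 h and 11.5%, 12.5% and 13.0% at 8 h. At 24 h they took 5.46%, 5.80% and 3.50%, the lowest in replicate 3. The 3 late libraries thus lay below all 12 others.

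**Figure D3:**
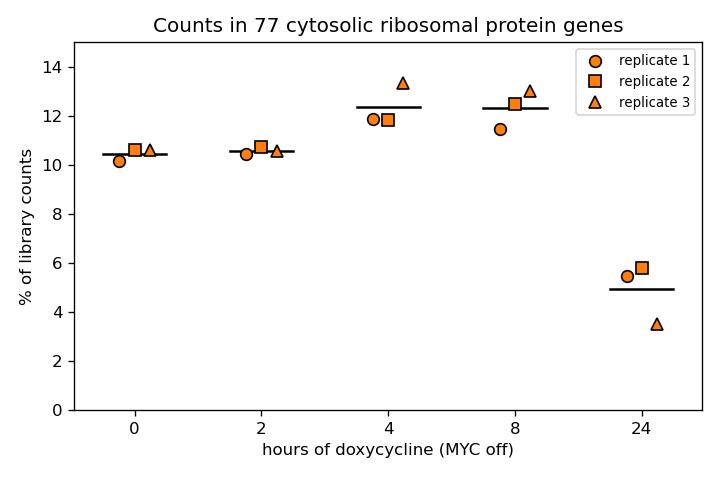
Percent of each library's counts in the 77 cytosolic ribosomal protein genes (y axis, from 0) by hours of doxycycline (x axis), 1 point a library with its replicate number by shape and a bar at the mean of 3. The 12 libraries from 0 to 8 h lie between 10.1% and 13.3%, and the 24 h libraries at 5.46%, 5.80% and 3.50%.

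Rps2, a protein of the small subunit at the mRNA entry channel, was at 1275, 1310.2 and 1365 CPM in the 8 h libraries and 265, 247 and 187 CPM after 24 h, a log2 change of -2.50 ± 0.15 (SE) (adjusted p 7.12e-05, edgeR's quasi-likelihood test). The gene lies at chromosome 17, 24718116 to 24721929, GRCm38, and Snhg9 and Snora78 overlap it on the other strand. Rpl27a, of the large subunit (chromosome 7, 109519147 to 109522367, GRCm38), stood at 1518, 1592 and 1590.3 CPM at 0 h and still at 1589.7, 1739.5 and 1911 CPM at 8 h, then at 433, 464 and 257 CPM. It fell by 2.18 ± 0.22 (SE) on the log2 scale. Rplp1, a protein of the acidic stalk that recruits elongation factors, went from 1790.0, 1802 and 1891 to 444, 488 and 286 CPM, a log2 change of -2.17 ± 0.19 (SE). In each of these genes no 24 h library reached the 8 h range, a condition under which the largest falls were picked, and replicate 3 was the lowest.

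Many ribosomal protein genes have processed pseudogenes of nearly the same sequence, and reads may be split between them. Of 112 tested pseudogenes named after ribosomal proteins, 42 fell and none rose, against 6.86% falls among all genes. Without 24 h replicate 3, 62 fell and none rose, against 15.7% falls. With all libraries the median log2 change of the pseudogenes was -1.45, where the 77 genes had -1.50. At 4 h against 0 h their median was 0.75 and that of the genes 0.20, a difference that was not tested. Values of single ribosomal protein genes are uncertain to that extent.

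For 57 of the 77 genes a RefSeq promoter (GRCm38.p6, 250 bases before to 50 after the start) was at hand. The letters CTTTC, a common core of TOP tracts, stood on the coding strand within 20 bases of the annotated start in 18 of them (31.6%), against 5.72% of all 8794 promoters of tested protein-coding genes and 11.6% of 86 promoters of the other late-only falls. The starts of 4 late-only falls are shown, picked from those 18 because they carry CTTTC, which is in capitals.
Rpl27a, chr7:109519195-109519219, plus strand: tcccttttccCTTTCtgccaccgcc
Rpl12, chr2:32961712-32961736, plus strand: gtcttttcggCTTTCggctcggagg
Rpl28, chr7:4792957-4792981, plus strand: tcgtgtctctCTTTCcgtctccggc
Rpl38, chr11:114668570-114668594, plus strand: aagcctcgttCTTTCcccgttctct
The match is a description of letters near an annotated start, and a start without it says nothing of how the mRNA begins.

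Some other mRNAs with TOP tracts fell too. Of 16 elongation factors, initiation factors and other textbook members, a set chosen after their values were seen, 11 fell, where 6.86% of all genes did. Without 24 h replicate 3 all 16 fell, against 15.7%. The libraries of the 2 times did not overlap for any of the 16, where 25.2% of all genes lay lower without overlap. Because of how the set was chosen, these counts do not speak for TOP mRNAs at large. Eef1a1, the factor that delivers aminoacyl-tRNA to the ribosome and the only nuclear gene above 1% of a library, was at 15888, 17344 and 17686 CPM at 0 h, at 15782, 16594 and 18228 at 8 h and 5955, 5896 and 3774 after 24 h. It fell by 1.70 ± 0.20 (SE) on the log2 scale (adjusted p 0.00116, edgeR's quasi-likelihood test). Eef1b2, its nucleotide exchange factor, went from 1586, 1774 and 1965 to 445, 494 and 283 CPM, and it overlaps Ndufs1 on the other strand. Rack1, a scaffold on the small subunit, went from 4751, 5453 and 5898 to 2429, 2513 and 1441 CPM. Eef1g and Npm1 had already fallen by 8 h and so were not late-only: Npm1, a nucleolar chaperone, stood at a mean of 6132 CPM at 0 h, at 2612, 2782 and 3115 at 8 h and 816, 828 and 549 after 24 h, a late change of -1.96 ± 0.18 (SE) (log2).

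Genes that build ribosomes behaved otherwise. All 44 genes of ribosome assembly and rRNA processing had fallen at 4 h (24.1% of all genes had), with a median log2 change of -1.71. At the late step 5 fell and 2 rose, against 6.86% and 6.54% of all genes, with a median of -0.04. Without 24 h replicate 3, 12 fell and 10 rose, against 15.7% and 18.5%, with a median of -0.02. The 5 were Npm1, Utp15, Wdr12, Fbl and Nhp2. Fibrillarin (Fbl), which methylates rRNA, was at 74.5, 70.5 and 74.0 CPM at 8 h and 39.2, 41.5 and 30.3 after 24 h, a further log2 change of -0.98 ± 0.13 (SE). Ubtf, a factor of RNA polymerase I, was 1 of the 2 that rose, from 124, 115 and 108 to 158, 153 and 179 CPM. Nucleolar genes thus fell early and ribosomal protein genes late, on the medians of 2 steps that share no library.

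Of 24 respiratory chain genes encoded in the nucleus 8 fell and none rose, against 6.86% falls among all genes, with a median log2 change of -0.60. Late-only falls made up 3 of the 24, against 181 of all 14485 genes. Without 24 h replicate 3, 16 fell, against 15.7% of all genes, with a median of -0.44. Atp5b, the catalytic subunit of ATP synthase, was at 1459, 1341 and 1446 CPM at 8 h and 837, 847 and 617 after 24 h (-0.88 ± 0.14 (SE), log2). Cox6c, of cytochrome oxidase, went from 306, 315 and 344 to 193, 191 and 125 CPM. None of the 12 tested genes of mitochondrial DNA was called with all libraries, 8 of the 12 changes were negative with a median of -0.15 (log2), and 2 fell and none rose without 24 h replicate 3. Of these genes mt-Co1 was among those with a positive change and read 5233, 6769 and 6752 CPM at 8 h and 7606, 7892 and 8779 after 24 h. Replicate 3 was the lowest of the 3 late libraries in 140 of the 181 late-only falls.

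Several late-only falls belong to no listed group and, by the rule, stayed within 1.2-fold of 0 h through 8 h. Sowahc, an ankyrin repeat protein, was at 141, 146 and 137 CPM at 0 h. It was higher at 2 h, with 170.3, 170.1 and 168.7 CPM, a log2 change of 0.263 just under the 1.2-fold limit. At 8 h it read 168, 141 and 150.3 CPM and after 24 h 21.8, 24.1 and 22.9. The late log2 change of -2.74 ± 0.11 (SE) was the same without replicate 3 (-2.74). Efhd1, a calcium-binding mitochondrial protein, went from 221, 186 and 183 to 31.7, 31.1 and 40.1 CPM, and March8, a ubiquitin ligase that removes surface receptors, from 22.9, 24.1 and 23.5 to 5.55, 6.96 and 5.68. In these 3 genes replicate 3 lay within or above its fellow libraries.

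Late-only rises were fewer, 68 genes, and replicate 3 was the highest of the 3 late libraries in 59 of them. All 68 were also called without it, with a smaller median log2 change (0.76, against 0.88 with it). They were also long, with a median gene model of 6406 bases among the 67 protein-coding members against 4328 among all protein-coding genes tested and 3031 among the late-only falls. Arid1a, the DNA-binding subunit of the BAF chromatin remodeler, was at 152, 149 and 126 CPM at 8 h and 294, 292 and 581 CPM after 24 h. Its log2 change was 1.45 ± 0.27 (SE) with all libraries and 1.04 without replicate 3. Kif21b, a kinesin of lymphocytes, went from 176, 158 and 140.1 to 333, 331 and 672 CPM in the same pattern. Rasgrp2 and Nfatc1, an activator of RAP1 and a transcription factor of antigen receptor signaling, went from 11.4, 11.6 and 12.04 to 25.3, 26.5 and 33.2 CPM and from 9.64, 7.76 and 7.55 to 16.1, 15.3 and 28.4 CPM. Replicates 1 and 2 alone lay above every 8 h library in all 4 genes, but the top members of a class were picked for libraries that did not overlap.

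Of 26 chromatin regulators, 5 rose and none fell (6.54% of all genes rose), and 17 rose and 1 fell without replicate 3 (18.5% of all genes rose), with a median log2 change of 0.68 and 0.43. Kmt2d, a histone H3 lysine 4 methyltransferase, was at 44.0, 45.7 and 38.1 CPM at 8 h and 96.1, 102 and 226 after 24 h (1.73 ± 0.32 (SE), and 1.22 without replicate 3). Kdm5b, a demethylase of the same mark, went from 3.30, 3.52 and 3.72 to 9.41, 8.17 and 11.8 CPM.

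The reversals that rose late stood at a median of 45.6% of their 0 h level at 4 h and again at 8 h, and came back to 96.4% of 0 h at 24 h. Of the 191, 94 ended above their 0 h mean and 97 below it. Their median late change was 1.02 (log2), or 0.90 without replicate 3, which was the highest late library in 154 of them. E-boxes stood in a like share of their promoters as of all early falls: CACGTG, which reads the same on both strands, stood in 28 of 145 (19.3%), against 20.2% of the 1388 promoters of genes that fell at 4 h and 11.9% of all 8794. Windows around the E-box are shown for 4 reversals described below, with its letters in capitals.
Pfkfb3, chr2:11502127-11502154, minus strand: acccttctctcCACGTGaaagggggctg
Mnt, chr11:74830790-74830817, plus strand: cccacccaagcCACGTGtgcgcgcgcgg
Dusp2, chr2:127336039-127336066, plus strand: agccagagtccCACGTGaagccgcgggg
Ciart, chr3:95882328-95882355, minus strand: gcatctagagtCACGTGttgccggtaag

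Some of them act in glucose use. Hk2, a hexokinase and known MYC target (chromosome 6, 82725025 to 82774454, GRCm38), stood at 19.3, 16.4 and 17.7 CPM at 0 h, at 1.08, 0.852 and 1.86 at 4 h, at 2.24, 2.47 and 3.14 at 8 h and 10.99, 12.9 and 13.7 after 24 h. Its early log2 change was -3.82 ± 0.17 (SE) and its late one 2.26 ± 0.17 (SE), with adjusted p of 1.91e-11 and 0.000211 by edgeR's quasi-likelihood test. Pfkfb3, which makes the activator of phosphofructokinase, went from 31.3, 29.7 and 28.6 to 3.88, 2.94 and 5.22 CPM early, and from 9.49, 9.64 and 9.55 at 8 h to 28.9, 37.2 and 43.7 after 24 h. Pfkp, the platelet-type phosphofructokinase, was at a mean of 159.6 CPM at 0 h and 77.1 at 4 h, at 88.2, 87.7 and 98.4 at 8 h and 157, 158 and 165 after 24 h.

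Of 17 tested genes of glycolysis and lactate transport, 5 rose late and 1 fell, with a median log2 change of 0.17, and 8 rose and 3 fell without replicate 3. The shares of all genes were 6.54% rises and 6.86% falls (18.5% and 15.7% without replicate 3). Of the 17, 2 were reversals that rose, where 191 of all 14485 genes were. The glucose transporter Slc2a1 went from 28.4, 29.2 and 32.1 to 49.5, 54.4 and 51.7 CPM without having fallen by 1.5-fold early, while the enolase Eno1 fell further, from 772, 751 and 772 to 540.2, 571 and 503 CPM, a call lost on library totals. Vegfa, the vascular growth factor, also turned, from a mean of 21.4 CPM at 0 h and 6.37 at 4 h to 27.2, 30.2 and 36.7 CPM after 24 h (1.44 ± 0.14 (SE) against 8 h, log2).

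Of the genes of polyamine, serine and one-carbon metabolism, 3 turned. On that list of 17, 14 had fallen at 4 h (24.1% of all genes had). At the late step 3 rose and 1 fell, against 6.54% and 6.86% of all genes, with a median log2 change of 0.12. Without replicate 3, 5 rose and 4 fell, against 18.5% and 15.7%. The 3 that rose with all libraries were reversals, by differing amounts, where 191 of all 14485 genes were rising reversals. Mat2a, the enzyme that makes S-adenosylmethionine, was at a mean of 633 CPM at 0 h, 154, 177 and 167 CPM at 4 h, 138, 150.1 and 149.9 at 8 h and 312, 298 and 272 after 24 h, a late change of 1.01 ± 0.10 (SE) (log2) in which replicate 3 was the lowest late library. Shmt1, the cytosolic serine hydroxymethyltransferase, rose from 20.3, 19.99 and 20.5 to 29.3, 32.9 and 31.8 CPM, far under its 0 h mean of 399. Srm, spermidine synthase and a much-used MYC target, rose from 2.90, 2.89 and 2.68 to 4.87, 4.43 and 4.44 CPM, where 0 h had a mean of 354. With RLE or upper-quartile factors, or with no low-count filter, the rise of Srm missed the test. The cationic amino acid transporter Slc7a1 went from 24.01, 22.3 and 22.9 to 36.5, 38.6 and 53.5 CPM against 177 at 0 h. A late rise past the test was therefore not always a return: in Srm and Shmt1 the 24 h level was 1.29% and 7.86% of that at 0 h.

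Other reversals that rose encode regulators and surface proteins. Mnt, a MAX partner that represses E-box genes, was at a mean of 43.9 CPM at 0 h and 10.6 at 4 h, then at 17.7, 15.6 and 14.8 at 8 h and 33.4, 30.2 and 52.8 after 24 h. Vav2, a guanine nucleotide exchange factor, and Lrp8, a lipoprotein receptor, went from 4.80, 3.64 and 3.07 to 8.40, 11.1 and 18.7 CPM and from 6.16, 5.17 and 5.02 to 14.6, 14.3 and 25.2 CPM. Piezo1, a mechanically gated channel, stood at 28.2, 24.9 and 22.8 CPM at 8 h and 48.5, 48.1 and 98.8 after 24 h, with a late change of 1.36 ± 0.28 (SE) that became 0.93 without replicate 3 (log2). In each of these genes replicates 1 and 2 also lay above the 8 h range, but the top members of a class were picked for libraries that did not overlap.

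Dusp2, a nuclear MAP kinase phosphatase, had nearly gone at 4 h (mean 1.30 CPM against 15.3 at 0 h) and rose from 1.91, 1.54 and 1.495 to 4.47, 3.65 and 4.14 CPM. Bcl2l11, which encodes the pro-death BH3 protein BIM, was at 23.9, 23.5 and 22.4 CPM at 8 h and 36.8, 38.7 and 53.1 after 24 h, above its 0 h mean of 30.2. Il4ra, the interleukin-4 receptor chain, ended above 0 h as well. It was at 5.93, 6.40 and 7.12 CPM at 0 h, 6.60, 8.06 and 7.74 at 8 h and 25.95, 28.5 and 28.6 after 24 h. Its 8 h libraries already lay within or above the 0 h range, so its late rise was not a return. The rise of Il4ra was as large without replicate 3 (log2 changes of 1.89 and 1.87).

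The 171 reversals that fell late had reached a median of 172% of 0 h at 4 h and 195% at 8 h and dropped to 80.9% at 24 h. Of them, 99 encode proteins and 49 are pseudogenes, 18 of these with symbols of ribosomal proteins. None of the 77 ribosomal protein genes was in this class. Whether reads shared between such genes and pseudogenes play a part was not tested. CACGTG stood in 3 of 77 promoters of the protein-coding members (3.90%). Among immune genes, Ctla4, the inhibitory receptor that competes with CD28, was at 23.1, 21.1 and 20.8 CPM at 0 h, 40.8, 47.2 and 54.6 at 4 h, 65.2, 68.5 and 79.9 by 8 h, and finally 24.2, 27.9 and 17.0 after 24 h. Its early change was 1.13 ± 0.09 (SE) and its late change -1.63 ± 0.18 (SE) (log2), with adjusted p of 3.8e-08 and 0.00102 by edgeR's quasi-likelihood test.

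Il7r, the interleukin-7 receptor of early thymocytes, rose from 18.2, 16.8 and 18.2 CPM at 0 h to 36.1, 38.5 and 38.9 at 8 h and was then at 9.17, 9.66 and 10.95 CPM, below where it began. Tnip3, an inhibitor of NF-kB signaling, went from 14.4, 15.2 and 17.7 to 2.29, 3.14 and 1.57 CPM and Adgrb3, an adhesion receptor, from 14.4, 16.1 and 16.7 to 4.47, 5.13 and 2.47. Gna14, a G protein alpha subunit, went from 61.8, 68.5 and 70.8 to 17.2, 14.6 and 11.8 CPM, where 0 h had a mean of 42.3. The 24 h libraries of these 4 genes did not overlap with those of 8 h, but the top members of a class were picked under that condition. It is therefore no separate support.

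Smaller turns were seen in metabolism and glycan removal. Mvk, mevalonate kinase, was the only 1 of 21 sterol synthesis genes called with all libraries, where 6.86% of all genes fell and 6.54% rose. That call was lost on library totals. Without replicate 3, 4 of the 21 fell and 2 rose, against 15.7% and 18.5% of all genes. Mvk went from 17.7, 15.7 and 16.0 to 10.3, 12.2 and 10.3 CPM after an early log2 change of 0.68 ± 0.10 (SE). Neu3, a sialidase of gangliosides at the plasma membrane, went from 331, 319.9 and 317 to 181, 184 and 207 CPM, still above its 0 h mean of 155.

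**Figure D4:**
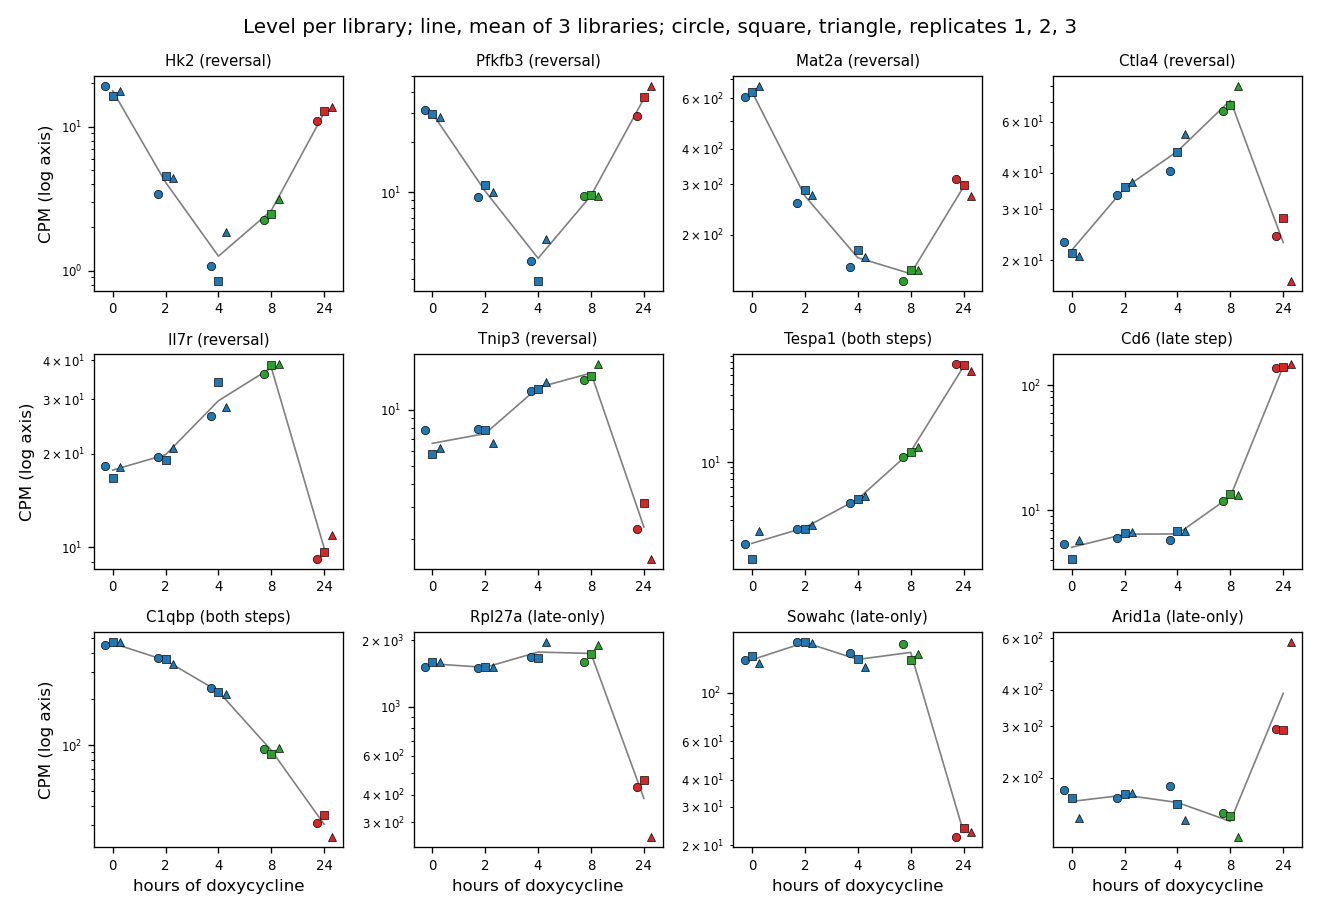
CPM in each of the 15 libraries (y axis, log scale, its own range in each panel) by hours of doxycycline (x axis) for 12 genes, with replicate 1 as a circle, 2 as a square and 3 as a triangle, and a line through the means of 3. Hk2, Pfkfb3 and Mat2a drop and rise again, Hk2 and Mat2a to below their 0 h level. Ctla4, Il7r and Tnip3 climb to 8 h and drop. Rpl27a, Sowahc and Arid1a stay within 1.2-fold of 0 h until 8 h. In Arid1a replicate 3 sits at 581 CPM against 294 and 292.

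Genes that rose at both steps, 109 in number, ended at a median of 624% of their 0 h level. Tespa1, needed for calcium signals of the thymocyte antigen receptor, was at 1.83, 1.35 and 2.41 CPM at 0 h, 4.34, 4.68 and 4.94 at 4 h, 11.2, 12.3 and 13.8 by 8 h, and finally 76.2, 74.3 and 66.2 after 24 h. Cdh24, a cadherin, went from 6.74, 7.46 and 6.40 to 43.0, 39.6 and 87.7 CPM, with replicate 3 well above its fellows. Etv5, an ETS factor downstream of MAP kinase, went from 6.49, 6.37 and 5.75 to 23.6, 24.2 and 31.1 CPM, and Tox, a factor of CD4 lineage development, from 7.88, 6.94 and 7.63 to 22.9, 21.5 and 24.7. Rrm2, the small subunit of ribonucleotide reductase, rose from 998, 1021 and 1036 to 1752, 1770.1 and 1459.5 CPM, and Cd47, the signal that restrains phagocytes, from 68.0, 67.2 and 67.7 to 105, 101 and 109 CPM.

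The 40 genes that fell at both steps were at a median of 19.1% of 0 h at 24 h. C1qbp, a mitochondrial matrix protein, went from a mean of 461 CPM at 0 h through 93.7, 87.3 and 95.8 at 8 h to 30.8, 35.2 and 25.1 after 24 h, a late log2 change of -1.60 ± 0.13 (SE). The mitochondrial chaperone Hspd1 was at a mean of 1655 CPM at 0 h, at 248, 207 and 214 at 8 h and 106, 104 and 113 after 24 h. Its partner Hspe1, which overlaps it on the other strand in the annotation, went from 130.1, 148 and 165 to 66.1, 70.5 and 38.6 CPM. Of 11 tested heat shock chaperones 4 fell and none rose (6 and 1 without replicate 3), against 6.86% falls among all genes (15.7% without replicate 3). Hsp90ab1 was among the 4, from 3331, 3351 and 3407 to 1564, 1572 and 1269.8 CPM, as was Hsph1, from 66.4, 63.3 and 62.5 to 35.7, 36.1 and 36.7.

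Some of the largest late changes met none of these rules. Cd6, a scavenger receptor that tunes T cell activation (chromosome 19, 10789341 to 10830058, GRCm38), was at 5.84, 6.81 and 6.80 CPM at 4 h, 11.8, 13.6 and 13.3 at 8 h and 137, 141 and 148 after 24 h, a log2 change of 3.46 ± 0.10 (SE) (adjusted p 1e-05, edgeR's quasi-likelihood test). Its relative Cd5 went from 13.4, 14.8 and 13.4 to 77.6, 79.7 and 92.1 CPM. P2rx7, an ATP-gated channel, rose from 1.25, 1.80 and 1.495 to 17.1, 16.8 and 18.4 CPM, and Gsn, which severs actin filaments, from 8.39, 10.8 and 10.1 to 52.9, 55.7 and 44.1. In Cd6, Cd5 and P2rx7 the 3 late libraries lay close together, replicate 3 included.

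Among the largest falls, Meikin, a kinetochore protein of meiosis and 1 of the 171 reversals, was at 62.2, 67.6 and 75.9 CPM at 8 h and stood at 4.37, 5.10 and 4.84 CPM after 24 h (-3.84 ± 0.13 (SE), log2). Egfem1, a protein with EGF-like repeats that met none of the rules, went from 11.8, 11.9 and 10.6 to 0.538, 0.777 and 0.634 CPM. Lamp2, a lysosomal membrane protein of chaperone-mediated autophagy, was at 2142, 2238 and 2357 CPM and then at 421, 415 and 299, and the lysosomal protease Ctsb at 2641, 2552 and 2569 and then 951, 895 and 719. Of 28 tested lysosome genes 5 fell and none rose, against 6.86% falls among all genes, with a median log2 change of -0.14. Without replicate 3, 9 of the 28 fell and 2 rose, against 15.7% and 18.5% of all genes. Slc1a4 and Slc16a1, which carry neutral amino acids and lactate, fell from 143, 127 and 117 to 29.2, 29.6 and 34.4 CPM and from 922, 871 and 916 to 372, 393 and 351 CPM.

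Among genes of T cells more rises than falls were called, and most members were not called. Of 15 genes of the T cell receptor, CD3 and coreceptors, 6 rose and none fell (8 rose and 2 fell without replicate 3). Of 31 genes of proximal receptor signaling 9 rose and none fell (17 and 3). The share of rises among all genes was 6.54% (18.5% without replicate 3). Trac, the constant segment of the alpha chain, went from a mean of 105 CPM at 0 h to 272, 283 and 271 at 8 h and 926, 877 and 817 after 24 h, a late change of 1.67 ± 0.10 (SE) (log2). Trbc2, of the beta chain, rose from 2504, 2447 and 2377 to 4579, 4529.9 and 3824 CPM and Cd8a, a coreceptor, from 1109, 1076 and 1085 to 1639.7, 1621 and 1556. Pag1, an adaptor that holds back LCK, was among the reversals, with 12.7, 11.02 and 10.3 CPM at 8 h and 27.2, 23.9 and 46.4 after 24 h.

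T lineage transcription factors rose in 6 of 20 cases (10 rose and 3 fell without replicate 3). Among all genes, 6.54% rose and 6.86% fell (18.5% and 15.7% without replicate 3). Ets2 went from 301, 273 and 255 to 719, 693 and 990.4 CPM, Bcl11b, which commits progenitors to the T lineage, from 206, 193 and 169 to 342, 335 and 559, and Id3, an inhibitor of E proteins, from 37.7, 33.3 and 38.8 to 64.3, 63.6 and 54.8. Among genes of receptor recombination and thymocyte stage, 4 of 13 rose and 2 fell (6 and 2 without replicate 3). Dntt, the terminal transferase of recombination, fell from 3611, 3644 and 3824 to 2390.0, 2428 and 1838 CPM together with Il7r.

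Homing and cytokine receptors were mixed. The shares of all genes, for these lists and the GIMAP genes, were 6.54% rises and 6.86% falls (18.5% and 15.7% without replicate 3). In homing and egress, 6 of 16 rose and 1 fell (8 and 1 without replicate 3). Itgal, the alpha chain of LFA-1, rose from 46.1, 41.8 and 39.7 to 125, 123 and 178 CPM and the lymph node receptor Ccr7 from 4.07, 4.42 and 4.03 to 12.2, 13.9 and 11.2, while the integrin Itga4 fell from 118, 115 and 119 to 49.3, 52.8 and 50.5. Of 22 cytokine receptors and SOCS genes 7 rose and 3 fell (11 and 5 without replicate 3), Ifngr1 from 86.4, 88.1 and 97.2 to 219.6, 211 and 177 CPM and Jak3 from 17.7, 16.6 and 15.03 to 36.8, 33.4 and 72.8 among the rises. Of 6 tested GIMAP GTPases, small GTPases of lymphocyte survival, 4 rose (5 without replicate 3), all 4 from under 1 CPM: Gimap7 read 0.586, 0.562 and 0.498 CPM at 8 h and 4.67, 3.24 and 3.01 after 24 h.

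Immediate-early genes and MAP kinase feedback rose in 8 of 18 cases and fell in 1, with a median log2 change of 0.79 (12 and 2 without replicate 3, 0.74). Among all genes, 6.54% rose and 6.86% fell (18.5% and 15.7% without replicate 3). Egr1 was at 3.26, 2.36 and 2.72 CPM at 8 h and 10.4, 10.5 and 17.1 after 24 h. Jun went from 1.87, 1.84 and 1.42 to 4.47, 6.79 and 5.38 CPM, its antisense partner Junos overlapping it, and Dusp1 from 10.4, 11.3 and 11.7 to 25.4, 24.6 and 22.97.

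In the lists of mitosis and replication few members were called with all libraries. Among all genes, 6.54% rose and 6.86% fell (18.5% and 15.7% without replicate 3), and 25.1% had risen at 4 h. Of 30 mitosis genes 1 fell (Ccnb1, 775, 772 and 859.9 to 529, 544 and 388 CPM, a call lost on library totals) and of 28 replication genes 1 fell (Orc1), with medians of 0.06 and 0.01, where 26 of the 30 and 17 of the 28 had risen at 4 h. Without replicate 3, 9 mitosis genes rose and 4 fell, and 5 replication genes rose and 2 fell. In G1 cyclins, kinases and E2F, 5 of 15 rose, against 6.54% of all genes, and 1 fell (7 and 4 without replicate 3). E2f8 went from 143, 131 and 114 to 237, 223 and 341 CPM and Ccnd3, cyclin D3, from 1006, 904 and 849 to 1424, 1375 and 1777, while Skp2, which marks CDK inhibitors for breakdown, fell from 210.2, 216 and 224 to 154, 155 and 124, a call lost on library totals. Of 25 proteasome genes 1 fell, a share under the 6.86% of all genes, and without replicate 3, 6 fell and 1 rose. In 23 of the 25 the change was negative, where it was in 6753 of all 14485 genes, and the median was -0.30.

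Sialic acid genes turned in part. St6galnac4, the sialyltransferase that makes disialyl-T and that had dropped from a mean of 78.1 CPM at 0 h to 3.90 at 4 h, was at 6.23, 6.07 and 5.48 CPM at 8 h and 7.06, 8.04 and 9.65 after 24 h, a change of 0.48 ± 0.15 (SE) (log2) that did not pass the test (adjusted p 0.0437, edgeR's quasi-likelihood test). St6galnac6, which adds sialic acid to gangliosides, was a reversal, from 8.32, 9.86 and 8.17 to 14.8, 16.4 and 20.8 CPM against a 0 h mean of 21.2. St3gal2 and St6gal1 also rose, to 17.4, 17.1 and 21.2 CPM and 41.9, 38.5 and 42.3 CPM. Thus 3 of 10 tested sialyltransferases rose and none fell, against 6.54% rises among all genes (5 and none without replicate 3, against 18.5%). Spn, which encodes the mucin CD43, read 210.4, 205 and 205 CPM at 8 h and 215, 203 and 192 after 24 h, and the 2 ranges overlapped. Of 11 genes of sialic acid supply and removal 2 fell, Neu3 and Npl, and none rose, against 6.86% falls among all genes. The numbers were the same without replicate 3, against 15.7%.

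**Figure D5:**
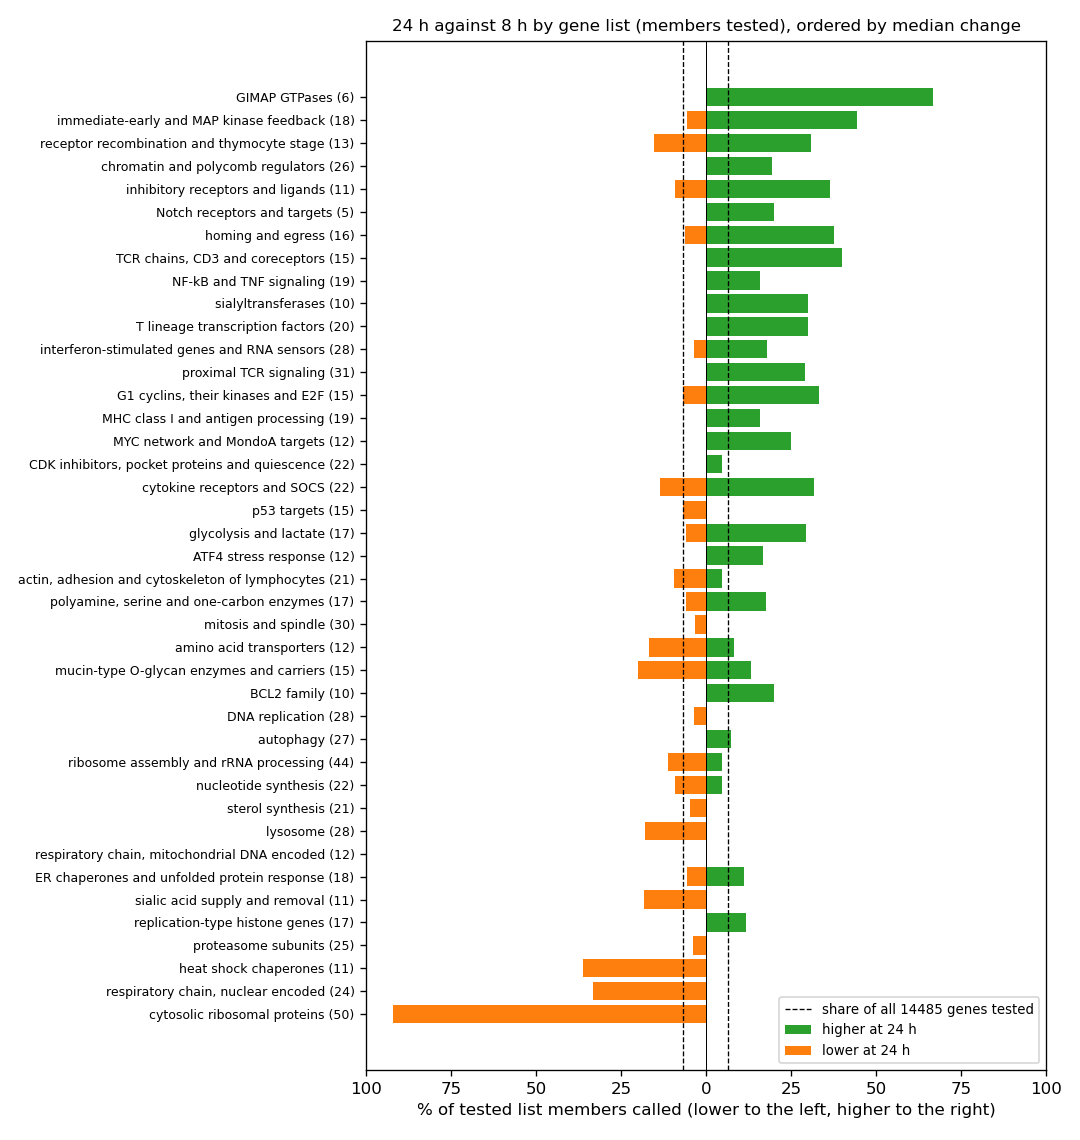
Percent of the tested members of each of 41 gene lists called higher (right) or lower (left) at 24 h than at 8 h (x axis), ordered by median change, with the number tested in brackets and dashed lines at the shares of all 14485 genes (6.54% and 6.86%). Cytosolic ribosomal proteins, respiratory chain genes and heat shock chaperones reach farthest to the left, and GIMAP, immediate-early and T cell receptor genes farthest to the right.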

How the data were processed

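PolyA RNA of 15 libraries (5 times, 3 each) was measured by RNA sequencing. Per the labels and the submitters' processing notes, reads were trimmed with cutadapt 1.16, aligned with STAR 2.5.4b to mm10 and counted with featureCounts (neither an annotation release nor a strand setting is stated there). The deposited files give raw counts per gene, and FPKM and TPM that the authors derived from them; only the counts were used here. Groups were taken from the labels. Genes passing filterByExpr over all 15 libraries were kept. The 24 h and 8 h libraries (6) were fitted alone in edgeR 4.0.16 (quasi-likelihood test, R 4.3.3) with TMM factors from all libraries, and calls needed an adjusted p (Benjamini-Hochberg) under 0.01. The 4 h and 0 h libraries had a fit of their own, as had 2 h and 8 h against 0 h. Reversals and genes moving at both steps needed 1.5-fold at each step; late-only genes needed 1.5-fold late and under 1.2-fold at 2, 4 and 8 h. Described genes were those of the study, the 15 largest rises and falls (protein-coding, called with and without 24 h replicate 3, at least 10 CPM, libraries not overlapping), 10 a class, up to 6 called members a list (all where at most 5 were called) and any gene above 1% of a library. Members and lists were chosen with earlier results of these data known. The script was tested on simulated data. Symbols, transcripts and positions came from GENCODE M21 (53274 of 53379 mouse IDs matched; 1 further feature is the human MYC transgene), promoters from RefSeq. A few named genes are not reported here. Alternatives were other scalings, filters, DESeq2 1.42.0, a joint fit, a replicate block, other thresholds and leaving out each library.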

Additional observations from a re-analysis of the deposited data

How the results depend on the processing

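The number of late calls depended on the processing more than their direction did. Counts are given in the order late rises, late falls, reversals rising, reversals falling, late-only rises, late-only falls, rises at both steps and falls at both steps, which were 947, 994, 191, 171, 68, 181, 109 and 40. Leaving out 1 library at a time gave 104 to 2678, 232 to 2270, 18 to 268, 35 to 260, 3 to 107, 62 to 196, 23 to 144 and 12 to 65, the lowest without an 8 h library and the highest counts of late rises and falls without 24 h replicate 3; the listed ribosomal proteins that fell numbered 24 to 50. Of the 101 genes given with values, 44 to 48 missed the threshold without 1 of the 8 h libraries, 45 did with the replicate block, 17 and 11 without 24 h replicate 1 and 2, and 5 did on library totals (hMYC, Ccnb1, Eno1, Mvk and Skp2). Under all settings run, the sign changed in Spn alone, which was not called (-0.02, log2), to 0.14 on library totals and a range of -0.066 to 0.016 on leaving out a library. Same-numbered 8 h and 24 h libraries deviated from their group means with correlations of -0.51, -0.03 and -0.60, and differently numbered ones with -0.48 to 0.55. With 3 libraries a time and 24 h replicate 3 far from its fellows, these values cannot tell whether the replicate numbers pair the libraries. With the replicate block the 8 counts were 144, 243, 25, 46, 4, 68, 29 and 10, and 29 ribosomal proteins fell. The cause of these differences was not tested.

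Library totals gave 1801 late rises, 303 rising reversals, 160 and 91 late-only rises and falls, and 194 and 20 genes rising and falling at both steps. Without a low-count filter there were 1529 late rises, 303 and 275 reversals, 143 late-only rises and 64 falls at both steps. DESeq2 called 1865 late rises and 1925 falls, 323 rising reversals, 146 and 285 late-only genes and 84 falls at both steps. A joint fit over the 15 libraries, which shares 1 estimate of spread, called 3014 and 2506, with 377 rising reversals, 210 late-only rises and 78 falls at both steps. An adjusted p under 0.05 gave 2729 and 2253, with 415 and 381 reversals, 202 late-only rises, and 216 and 80 at both steps. With the early response taken from 8 h against 0 h, which shares the 8 h libraries, 250 and 99 genes moved one way at both steps. With no fold minimum there were 291 and 409 reversals and 204 and 140 genes moving at both steps. Late-only rises and falls numbered 147 and 292 with the flat rule at 2 and 4 h only, and 214 and 376 with under 1.4-fold at 2, 4 and 8 h. RLE and upper-quartile factors, TMM factors that leave out the 20 most abundant and the mitochondrial genes, and a minimum of 10 counts in every library kept all 8 counts within 1.5 times; of single genes, Srm missed the threshold with RLE, upper-quartile factors and no filter, Piezo1 with upper-quartile factors and the minimum, and Ccnb1 with the minimum. The 4 h against 0 h counts stayed within 1.5 times throughout.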

Other observations

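Genes of the circadian clock were among the reversals, in a set of 20 chosen after their values were seen. Of 18 tested, 7 rose late and none fell (11 rose without 24 h replicate 3), where 6.54% and 18.5% of all genes rose, with a median log2 change of 0.69, or 0.43 without that library, after a median of -0.78 at 4 h. Of these, 5 were rising reversals (191 of all 14485 genes were): Ciart, Nr1d1, Nr1d2, Tef and Bhlhe40. Ciart, a repressor of the CLOCK and BMAL1 pair, was at 7.84, 6.76 and 7.48 CPM at 0 h, then, by 4 h, at 0.845, 1.39 and 1.03, by 8 h at 1.72, 1.91 and 1.80 and 6.52, 6.79 and 6.08 after 24 h. Nr1d2, which encodes REV-ERB beta, went from 17.3, 17.4 and 20.5 to 41.4, 44.1 and 30.9 CPM against a 0 h mean of 65.1, and Tef, a PAR bZIP factor, from 5.75, 6.26 and 4.87 to 11.4, 12.6 and 14.5 against 19.5. Nr1d1 overlaps Thra on the opposite strand, itself a reversal, so its reads cannot be assigned between them. Arntl, which encodes BMAL1, read 56.4, 51.0 and 51.7 CPM at 8 h and 60.0, 56.9 and 74.3 after 24 h and was not called. The sources used here give no collection times of day, so clock time and hours of doxycycline cannot be told apart.

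Genes that break down branched-chain amino acids and propionate were lower late, in a set of 22 genes also chosen after their values were seen. Of the 22, 12 fell and none rose (16 fell without 24 h replicate 3), where 6.86% and 15.7% of all genes fell. All 22 had negative changes, as had 6753 of all 14485 genes. The median was -0.74 on the log2 scale, and -0.65 without that library. Late-only falls made up 6 of the 22, against 181 of all 14485 genes. Ivd, isovaleryl-CoA dehydrogenase, went from 85.9, 78.8 and 77.1 to 30.1, 32.2 and 31.2 CPM (-1.37 ± 0.09 (SE), log2). Pcca and Pccb, the subunits of propionyl-CoA carboxylase, went from 80.7, 77.4 and 87.6 to 49.3, 49.5 and 37.9 CPM and from 42.3, 39.6 and 43.0 to 20.9, 22.8 and 16.0 CPM. Mut, methylmalonyl-CoA mutase, went from 93.3, 94.0 and 101 to 49.5, 52.8 and 43.9 CPM. In all 4 genes the libraries of the 2 times did not overlap, as in 18 of the 22, where 25.2% of all genes lay lower without overlap. Of the mitochondrial ribosomal protein genes, also looked up after values were seen, 9 of 76 tested fell and none rose, where 6.86% of all genes fell, with a median of -0.36. Without replicate 3, 29 fell and 4 rose (median -0.20), where 15.7% and 18.5% of all genes did. Most of the family was thus not called.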
